A study of Homo sapiens with 5 samples.

Results

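A set of 52 protein-coding genes whose products license, fire and replicate DNA origins or run the replication fork was examined for retinoblastoma protein (Rb) at promoters in ZR-75-1, an established oestrogen receptor-positive human breast cancer cell line. The genes were listed by name and role, with earlier results of these data known, and they were 52 of the 19970 that code for protein on the 22 autosomes and chromosome X, which left 19918 for comparison. Parental cells were treated for 4 days with DMSO vehicle or with abemaciclib at 500 nM, an inhibitor of the kinases CDK4 and CDK6. Native Rb was profiled by CUT&RUN, an assay that tethers a nuclease to an antibody on chromatin and sequences the DNA cut loose beside it, in 2 independent cultures per treatment, and 1 IgG2a negative-control library came from DMSO-treated cells. A gene was called bound in a library where a deposited peak overlapped the region from 2000 bp upstream to 500 bp downstream of any of its GENCODE transcription start sites (TSSs). Each culture was profiled in bulk, so that more Rb per cell and more cells carrying Rb cannot be told apart.

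Replication begins at origins marked by the origin recognition complex (ORC). CDC6 and CDT1 then load the MCM helicase ring in G1, and at the start of S phase the kinase pair CDC7 and DBF4, with firing factors, brings CDC45 and the GINS complex to the ring. DNA polymerases, the sliding clamp PCNA and its RFC loader, the single-strand binding protein RPA and the enzymes that finish Okazaki fragments then copy the DNA. Many of these genes are classical targets of E2F transcription factors, whose activity hypophosphorylated Rb restrains in G1, and CDK4 and CDK6 phosphorylate Rb.

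DMSO replicates 1 and 2 gave 1438 and 2582 peaks, abemaciclib replicates 1 and 2 gave 13960 and 12234, and IgG2a gave 589. Depth was implied from the peak statistics at 12.26 and 13.64 M fragments (M, 10 to the power 6) for DMSO and 9.73 and 7.69 M for abemaciclib. This estimate makes the abemaciclib libraries the shallower ones, but it rests on the least peak width of each list. That width was 143 and 134 bp in DMSO and 182 and 183 bp under abemaciclib. The genome-wide background itself was 0.6494 and 0.6769 in DMSO and 0.6558 and 0.5213 under abemaciclib. None of the 52 genes had an IgG2a peak in its promoter window, against 6 of all 19970 coding genes. Of the 589 IgG2a peaks, 505 lay off the 22 autosomes and chromosome X, where no promoter was examined.

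All 52 replication genes were bound in both abemaciclib libraries, against 52.7% of all coding genes. In DMSO, 28 were bound in replicate 1 and 35 in replicate 2, or 53.8% and 67.3% of the list, against 7.74% and 12.3% of the other coding genes. The mean was 52 ± 0 genes per abemaciclib library and 31.5 ± 4.95 per DMSO library (SD, n = 2 per treatment), a difference of 20.5 genes with an exact two-sided permutation p = 0.333, which is the smallest that 2 libraries against 2 can give. When every list was cut to its strongest 1438 peaks, the replication genes bound numbered 28 and 26 in the DMSO libraries and 27 in either abemaciclib library, against 7.74%, 7.56%, 8.47% and 8.45% of the other coding genes in the same order, and the difference between treatments was 0.

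By pattern, 27 of the 52 genes were bound in all 4 Rb libraries, against 6.41% of all coding genes. Another 16 had peaks in both abemaciclib libraries but no peak in DMSO, a pattern held by 38.9% of coding genes and called abemaciclib-only here. The remaining 9 were bound in both abemaciclib libraries and 1 DMSO library, 8 of them with DMSO replicate 2 (background 5.95%) and 1, RPA1, with DMSO replicate 1 (background 1.44%). No replication gene lacked a peak in all 4 libraries, as 40.7% of coding genes did. Among genes bound in both abemaciclib libraries, a peak in at least 1 DMSO library was present at 36 of the 52 replication genes (69.2%) and at 26.2% of the 10516 coding genes.

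**Figure D1:**
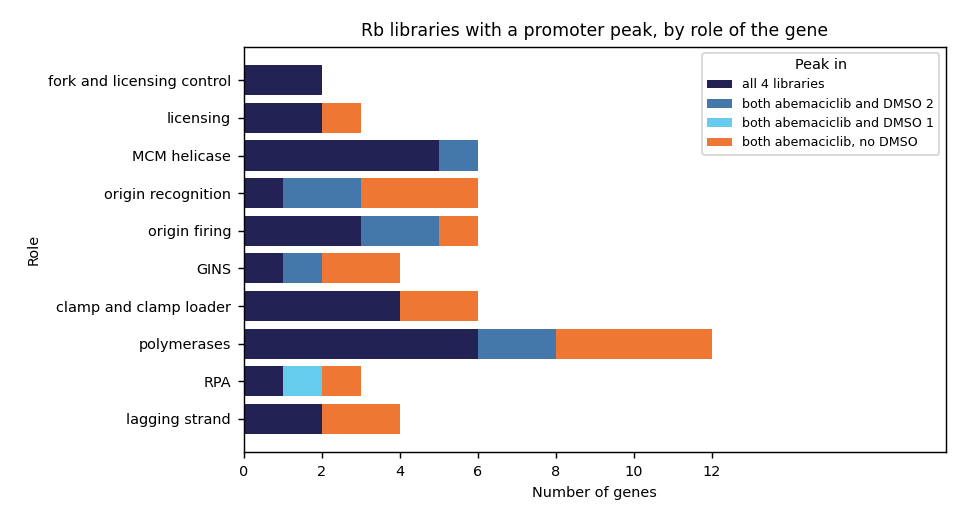
Number of genes (x axis) in each role (y axis) by the Rb libraries in which the promoter had a peak. All 52 genes had a peak in both abemaciclib libraries, 27 also in both DMSO libraries, 9 in 1 DMSO library and 16 in none. The MCM helicase genes were mostly bound in all 4 libraries, and origin recognition genes mostly were not.

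E2F factors are known partners of Rb at promoters. Letters of the E2F pattern within 200 bp of peak summits are shown first, for strongly bound genes of different roles and for 4 abemaciclib-only genes. The printed sites lay from 12 bp (CDT1) to 194 bp (DTL) from the summit of abemaciclib replicate 1. Sites were searched on both strands, as the letters TTCCCGC, or the letters TTCGCGC, or the letters TTGCCGC, or the letters TTGGCGC, within 200 bp on either side of the summit of abemaciclib replicate 1, and 41 of the 52 genes (78.8%) held at least 1, against 36.2% of the other bound coding genes. Each sequence is 30 bases of GRCh38 read on the strand that holds the site, with the site in capitals. The site of DTL, on the plus strand at chr1:212035629-212035658, lay 105 bp upstream of its main TSS. That of MCM7 (plus strand, chr7:100101385-100101414) lay 2 bp and that of PRIM1 (minus strand, chr12:56752330-56752359) 21 bp upstream of the TSS. Those of CDC6 (plus strand, chr17:40287876-40287905) and PCNA (minus strand, chr20:5119822-5119851) lay 11 and 122 bp downstream. Among abemaciclib-only genes, the sites of ORC1 (plus strand, chr1:52404425-52404454), CDT1 (minus strand, chr16:88803743-88803772) and POLA1 (minus strand, chrX:24693787-24693816) lay 16, 32 and 117 bp upstream, and that of RPA2 (plus strand, chr1:27914554-27914583) 7 bp downstream.
DTL: tggactccaggTTCCCGCggctgggagaaa
MCM7: gccaaccgaaaTTGGCGCgaaacgtcgccc
PRIM1: ccggccgtgctgTTCCCGCcaattcctgtg
CDC6: gccattcggatTTGGCGCgagcgcggctgg
PCNA: agactttcctccTTCCCGCctgcctgtagc
ORC1: gaaaagaaaacTTCGCGCcaatcggcgtgg
CDT1: ttcccgccaaatTTCCCGCgggcgccctgg
POLA1: ccgcccccggccTTCCCGCggacgcgcgtt
RPA2: ccacaaacgccTTCCCGCgaatggcggagc
These genes were picked among those that hold the letters, and the shares by pattern of binding are given with the other sequence patterns.

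Binding strength was read as summit height, the number of overlapping fragments at a peak's summit per 10 M implied fragments of its library. A peak needed at least 6 fragments at the genome-wide background in a DMSO library, which is a height of 4.89 in replicate 1 and 4.40 in replicate 2. A promoter with no DMSO peak was therefore below about that height where its local background was low, and its height there is not known. Peaks were also ranked by p-value within each list, with rank 1 the strongest.

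**Figure D2:**
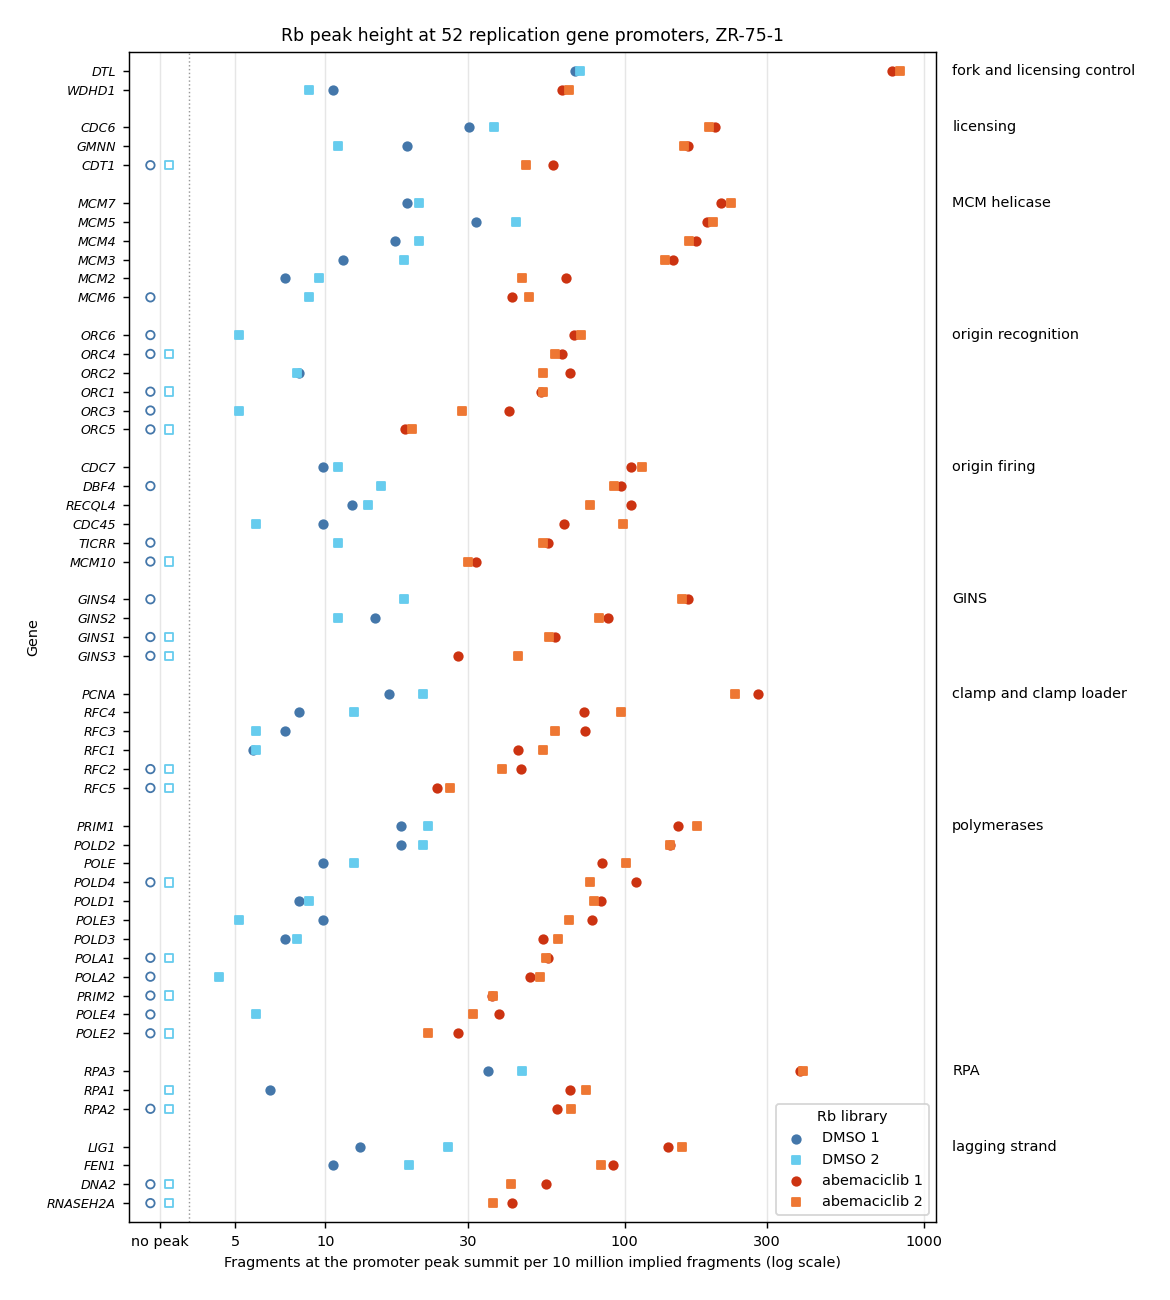
Summit height of the strongest promoter peak of each of the 52 genes (x axis, fragments per 10 M implied fragments, log scale; y axis, genes grouped by role), with 1 point per Rb library and open symbols left of the dotted line for libraries with no peak. Both abemaciclib points lay to the right of both DMSO points for all 27 genes with 4 points, and the abemaciclib points ran from 18.5 at ORC5 to 831 at DTL.

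The origin recognition genes encode the 6 subunits that mark origins. Only ORC2 was bound in all 4 libraries, ORC3 and ORC6 were also bound in DMSO replicate 2, and ORC1, ORC4 and ORC5 were abemaciclib-only. ORC6, the smallest subunit, had the best abemaciclib ranks of the group, 1298 and 1075, with heights of 67.8 and 71.5 in the abemaciclib libraries and 5.13 in DMSO replicate 2. The height of ORC3 was 41.1 and 28.6 under abemaciclib and 5.13 in DMSO replicate 2. The DMSO peaks of both genes were close to the calling limit. ORC1, the ATPase that varies over the cell cycle, reached 52.4 and 53.3 under abemaciclib with no DMSO peak. ORC5 had the lowest heights of all 52 genes, 18.5 and 19.5, at ranks 6897 and 6277. Its peak lay at chr7:104207622-104208097 with the summit 15 bp upstream of a TSS, and no E2F letters were found within 200 bp of it. ORC1 is printed as an abemaciclib-only promoter with an E2F pattern and a CCAAT box close together, as the 150 bases upstream of its TSS (minus strand, chr1:52404424-52404573, read towards the TSS), with E2F and CCAAT letters on either strand in capitals. The run ATTGGCGCGAA holds a CCAAT box on the opposite strand that overlaps E2F letters on both strands.
ORC1: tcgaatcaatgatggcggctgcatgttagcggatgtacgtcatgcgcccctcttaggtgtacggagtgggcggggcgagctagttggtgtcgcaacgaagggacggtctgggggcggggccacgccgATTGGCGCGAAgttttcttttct

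Of the licensing genes, CDC6 and GMNN were bound in all 4 libraries and CDT1 was abemaciclib-only. CDC6, the ATPase that loads MCM rings, had heights of 30.2 and 36.7 in DMSO and 201.5 and 191 under abemaciclib, at ranks 20, 16, 55 and 69. It therefore stood among the strongest peaks of every list. GMNN encodes geminin, the inhibitor of CDT1, and its mean height was 14.9 in DMSO and 161 under abemaciclib. CDT1, the partner of CDC6 in loading, reached 57.6 and 46.8 at ranks 1984 and 2526 of the abemaciclib lists and had no DMSO peak. Its proximal promoter carried E2F letters at 2 places, shown in the 150 bases upstream of its TSS (plus strand, chr16:88803639-88803788). The CDC6 stretch of equal length (plus strand, chr17:40287729-40287878) carried 3 CCAAT boxes and none of the E2F letters searched. Other E2F spellings were not searched, and the CDC6 match printed above lay 11 bp downstream of the TSS, outside this stretch.
CDT1: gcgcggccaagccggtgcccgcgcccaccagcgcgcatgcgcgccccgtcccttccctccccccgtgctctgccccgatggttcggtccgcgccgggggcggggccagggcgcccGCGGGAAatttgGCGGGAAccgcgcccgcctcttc
CDC6: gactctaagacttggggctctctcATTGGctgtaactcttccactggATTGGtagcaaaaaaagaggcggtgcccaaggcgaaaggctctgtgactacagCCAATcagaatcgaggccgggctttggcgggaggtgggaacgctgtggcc

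The MCM genes encode the 6 subunits of the replicative helicase. MCM2, MCM3, MCM4, MCM5 and MCM7 were bound in all 4 libraries and MCM6 in 3. MCM7 ranked 56 and 39 under abemaciclib with heights of 211 and 226, against 18.8 and 20.5 in DMSO. MCM5 had higher DMSO heights, 31.8 and 43.3, at ranks 30 and 14, and reached 188 and 198 under abemaciclib, a ratio of means of 5.14 that was the lowest of the 27 genes bound throughout. MCM6 stood apart from the other subunits, with no peak in DMSO replicate 1, a height of 8.80 in DMSO replicate 2 and 42.1 and 48.1 under abemaciclib. MCM2 was next lowest, at a mean of 54.6 under abemaciclib. MCM6 held 4 matches to the E2F letters within 200 bp of its summit, as did LIG1 and CDC7, and no gene held more. The 150 bases upstream of the MCM6 TSS (minus strand, chr2:135876444-135876593) show 3 of these matches and 2 CCAAT boxes, with 1 pair of E2F matches overlapping on opposite strands.
MCM6: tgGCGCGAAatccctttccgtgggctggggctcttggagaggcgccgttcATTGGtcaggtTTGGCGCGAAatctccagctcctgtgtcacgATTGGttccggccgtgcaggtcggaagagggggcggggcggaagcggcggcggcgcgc

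Of the origin firing genes, CDC7, CDC45 and RECQL4 were bound in all 4 libraries, DBF4 and TICRR also in DMSO replicate 2, and MCM10 was abemaciclib-only. CDC7, the catalytic subunit of the firing kinase, had heights of 9.79 and 11 in DMSO and 105 and 114 under abemaciclib. DBF4, its activating subunit, had no peak in DMSO replicate 1 and heights of 15.4 in DMSO replicate 2 and 97.7 and 92.3 under abemaciclib. TICRR, which brings CDC45 to origins, was at 11 in DMSO replicate 2 and 55.5 and 53.3 under abemaciclib. It is shown because its 150 bases upstream of the TSS (plus strand, chr15:89575319-89575468) held 4 CCAAT boxes and no E2F letters. MCM10, which binds the assembled helicase, was the weakest of the role at 31.9 and 29.9, at ranks 4651 and 4684, with its summit in an intron. The summit of CDC45, a helicase cofactor, differed most in position, by 457 bp between the abemaciclib replicates, and the median over the 52 genes was 41.0 bp.
TICRR: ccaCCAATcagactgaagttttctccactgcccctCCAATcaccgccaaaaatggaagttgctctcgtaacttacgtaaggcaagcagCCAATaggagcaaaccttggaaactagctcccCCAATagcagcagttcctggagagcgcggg

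The GINS genes encode the 4 subunits of another helicase cofactor and did not share a pattern. GINS2 was bound in all 4 libraries, GINS4 in both abemaciclib libraries and DMSO replicate 2, and GINS1 and GINS3 were abemaciclib-only. GINS4 had the greatest heights of the complex, 163 and 156 under abemaciclib and 18.3 in DMSO replicate 2. Its local background, the expected fragment number at the summit, was 2.90 and 2.36 in the abemaciclib libraries, and its fold over that background was 41.0 and 36.0. GINS3 had heights of 27.8 and 44.2. The strongest GINS1 peak, with heights of 58.6 and 55.9, lay at an alternative TSS beside ABHD12, whose main TSS is 16838 bp from that of GINS1. At the main TSS of GINS1 itself the heights were 25.7 and 37.7, at ranks 6498 and 3487, both below GINS3, and no DMSO peak was present there either.

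PCNA, RFC1, RFC3 and RFC4, the sliding clamp and 3 of its 5 loader subunits, were bound in all 4 libraries, and RFC2 and RFC5 were abemaciclib-only. The PCNA peak ranked 13 and 27 under abemaciclib with heights of 279.6 and 234, against 16.3 and 21.3 in DMSO, and its ratio of 13.7 was the highest of the 27 genes bound throughout. The loader subunits lay lower, with mean abemaciclib heights from 24.8 at RFC5 to 85.3 at RFC4. RFC5 reached 23.6 and 26.0, at ranks 7650 and 5186, and none of the E2F letters stood within 200 bp of its summit.

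The polymerase genes, which encode the subunits of polymerase α-primase, δ and ε, fell into 6 bound in all 4 libraries (POLD1, POLD2, POLD3, POLE, POLE3 and PRIM1), 2 also bound in DMSO replicate 2 (POLA2 and POLE4) and 4 abemaciclib-only (POLA1, POLD4, POLE2 and PRIM2). Each of the 3 enzymes thus had subunits of different patterns. PRIM1, the catalytic subunit of primase, had heights of 17.9 and 22 in DMSO and 151 and 174 under abemaciclib, at ranks 172 and 93. POLA1, the catalytic subunit of polymerase α, was at 55.5 and 54.6 under abemaciclib with no DMSO peak. POLA2, its regulatory subunit, was at 4.40 in DMSO replicate 2, the lowest height that was called there, and at 48.3 and 52 under abemaciclib. POLE4, a histone-fold subunit of polymerase ε, was at 5.87 in DMSO replicate 2 and 38.0 and 31.2 under abemaciclib. Both DMSO peaks stood near the calling limit. POLD4, the small subunit of polymerase δ, was abemaciclib-only, with heights of 109 and 76.7. Its local background was 3.48 and 2.73, and its fold of 23.9 and 16.1 was below that of PRIM1 at 89.4 and 88.7. POLE2, an accessory subunit of polymerase ε, had the worst mean rank of all 52 genes, from ranks 7092 and 7669, with heights of 27.8 and 22.1.

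RPA coats single-stranded DNA, and its 3 subunits had 3 patterns. RPA3, the smallest, was bound in all 4 libraries and ranked 8 in both abemaciclib lists, with heights of 385 and 394 against 35.1 and 45.5 in DMSO. That peak (chr7:7639827-7641440) lay at an alternative RPA3 TSS beside UMAD1, whose main TSS is 77855 bp from that of RPA3, and no Rb library had a peak at the main RPA3 TSS. RPA1, the large subunit, was at 6.52 in DMSO replicate 1, had no peak in DMSO replicate 2, and was at 65.8 and 74.1 under abemaciclib. RPA2 had the best mean rank of the abemaciclib-only genes, from ranks 1906 and 1271, with heights of 59.6 and 66.3.

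Of the lagging-strand genes, LIG1 and FEN1, the ligase and flap nuclease that join Okazaki fragments, were bound in all 4 libraries, and DNA2 and RNASEH2A, a nuclease-helicase and the catalytic subunit of RNase H2, were abemaciclib-only. LIG1 was at 13.1 and 25.7 in DMSO and 139.8 and 156 under abemaciclib. RNASEH2A was the weakest of the role at 42.1 and 36.4.

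DTL and WDHD1 were bound in all 4 libraries. DTL, the substrate receptor of the ubiquitin ligase that destroys CDT1 in S phase, held the first rank in both abemaciclib lists and ranks 7 and 15 in DMSO. Its heights were 68.5 and 71.1 in DMSO and 782 and 831 under abemaciclib, a ratio of means of 11.55. The peak (chr1:212034804-212036438) had a local background of 4.48 and 3.51 under abemaciclib and 3.79 and 6.31 in DMSO, the highest of the 52 genes in abemaciclib replicate 1, where the median was 0.80. Its fold over local background was 139 and 142 under abemaciclib, and ranked by fold the promoter stood at the 0.0645 and 0.0245 percentiles of these lists. WDHD1, a fork adaptor of polymerase α, was at 10.6 and 8.80 in DMSO and 61.7 and 65.0 under abemaciclib.

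All 27 genes bound throughout had a greater summit height in both abemaciclib libraries than in both DMSO libraries, and so did 100% of the 1281 coding genes bound throughout, so this count does not set replication genes apart. The ratio of means had a median of 8.35 over the 27 genes and 9.73 over the other 1254, whose middle range by quartiles was 7.97 to 11.8. These ratios depend on the implied totals. Without division by implied fragments, the median ratio was 5.52 for the replication genes and 6.57 for the others. With pileup divided by the genome-wide mean coverage it was 6.3 and 7.38, and with fold over local background 5.48 and 6.48. Divided by the median height of promoters bound throughout, only 3 of the 27 replication genes and 22.8% of all such coding genes were higher in both abemaciclib libraries. Heights agreed in order between libraries, with a Spearman correlation across genes of 0.95 between abemaciclib replicates (52 genes), 0.84 between DMSO replicates and 0.93 between the treatment means (27 genes each). Genes are not independent replicates, and the heights within a pair share each library's scaling.

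Within each list, the replication genes that had a peak were stronger in median rank than the other bound coding genes. In DMSO replicates 1 and 2 such genes numbered 28 and 35. The strongest 10% of these lists held 32.1% and 37.1% of them, against 8.56% and 10.3% of the other bound coding genes. The median rank percentile of the strongest promoter peaks of replication genes was 24.7 and 18.6 in DMSO replicates 1 and 2, against 49.0 and 45.1 for the other bound coding genes, where 0 is the strongest peak. In abemaciclib replicates 1 and 2 it was 9.44 and 10.6, against 38.3 and 40.2. The strongest 10% of the abemaciclib lists held 27 and 22 of the 52 genes, or 51.9% and 42.3%, against 14.2% and 13.5% of the other bound coding genes. The strongest 1% held 8 and 7, or 15.4% and 13.5%, against 1.43% and 1.31%.

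**Figure D3:**
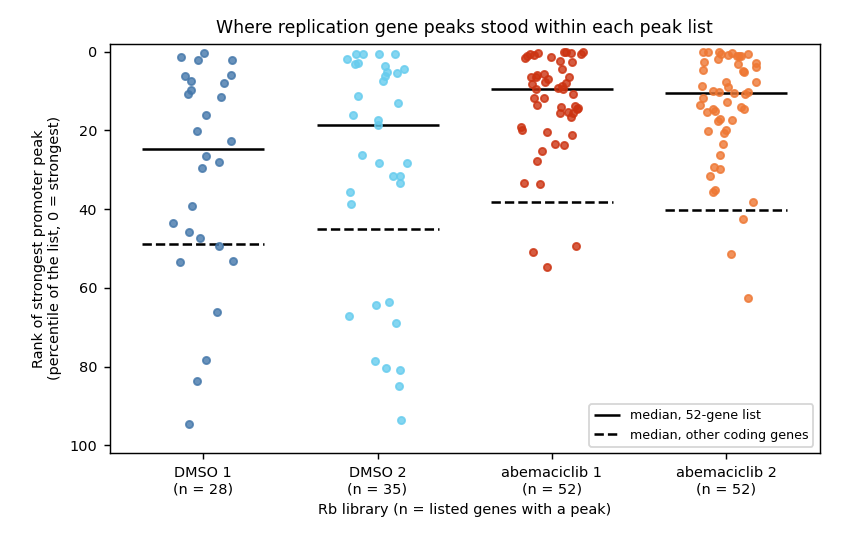
Rank percentile of each replication gene's strongest promoter peak (y axis, 0 the strongest) in each Rb library (x axis, with the number of listed genes bound), 1 point per gene, with solid lines for their median and dashed lines for the median of the other bound coding genes. The solid line is above the dashed one in each library, at 24.7, 18.6, 9.44 and 10.6 against 49.0, 45.1, 38.3 and 40.2.

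Rank under abemaciclib went with the presence of a DMSO peak. Genes bound in all 4 libraries had a median abemaciclib height of 92.9 (48.8 at RFC1 to 807 at DTL), those with 1 DMSO library 54.4 (34.6 at POLE4 to 159.7 at GINS4) and abemaciclib-only genes 45.1 (19.0 at ORC5 to 92.8 at POLD4), so the 3 groups overlapped. When genes were taken by mean abemaciclib rank percentile, a DMSO peak was present at 15 of 15 replication genes in the strongest 5%, against 98.0% of other coding genes there. From 5 to 10% it was 10 of 10, against 84.1%. From 10 to 20% it was 9 of 15, against 54.6%, and from 20 to 40% it was 2 of 9, against 17.5%. Below that it was 0 of 3, against 2.34%. At like rank the share with any DMSO peak in the list was therefore near that of other genes. A peak in both DMSO libraries was present at 14 of 15 genes (93.3%) against 88.5% in the strongest 5%, at 7 of 10 against 43.6% from 5 to 10% and at 6 of 15 against 15.5% from 10 to 20%. It was present at 0 of 9 against 1.6% from 20 to 40% and at 0 of 3 against 0.0204% beyond. These shares are descriptions with no test.

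**Figure D4:**
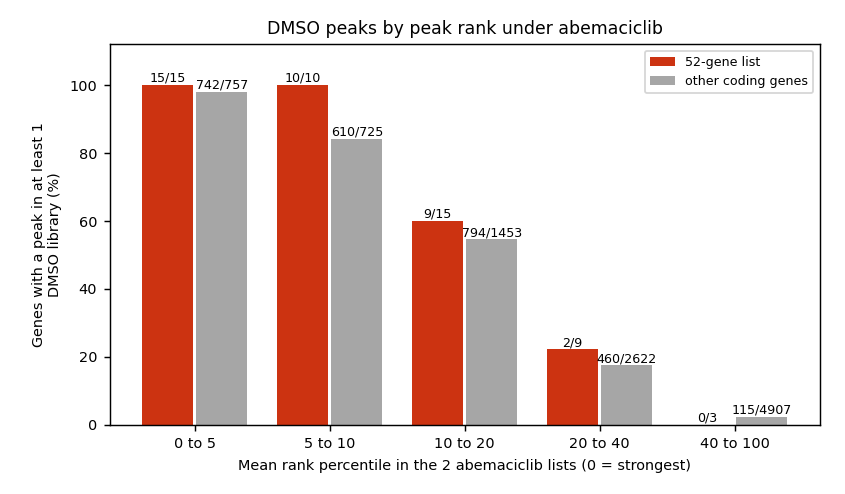
Share of genes with a promoter peak in at least 1 DMSO library (y axis, %) by mean rank percentile in the abemaciclib lists (x axis), for the 52 replication genes and the other coding genes bound in both abemaciclib libraries, with counts above the bars. The shares run from 15 of 15 genes and 98.0% in the strongest 5% to 0 of 3 genes and 2.34% beyond the first 40%.

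Summits lay close to TSSs. In the 4 libraries, 92.3% to 96.4% of the bound replication genes had the summit within 250 bp of the nearest TSS, against 77.0% to 80.1% of other bound coding genes. By the annotation, the summit of abemaciclib replicate 1 was in a UTR at 24 of the 52 genes, in a coding exon at 5, in another exon at 2, in an intron at 8 and outside the gene at 13. PRIM2 had the farthest summit in that library, at -722 bp from a TSS. Outside the promoter windows, the only further peaks that were nearest to a replication gene and present in both abemaciclib libraries lay 6752 to 6923 bp downstream of the POLD4 TSS, with heights of 18.5 and 33.8, and at -15535 to -15547 bp from the RFC2 TSS, with heights of 9.25 and 9.10.

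A peak in the window of a replication gene also overlapped the window of another coding gene at 21 of the 52 genes (40.4%), against 31.3% of other bound coding genes. Most were divergent pairs, such as DTL with INTS7 at 191 bp between main TSSs, MCM7 with AP4M1 at 246 bp, MCM4 with PRKDC at 805 bp, RPA1 with SMYD4 at 103 bp, ORC1 with PRPF38A at 179 bp and POLE3 with C9orf43 at 72 bp. The summit of abemaciclib replicate 1 was nearer a TSS of the other gene at DTL, RPA1, GINS1, FEN1, CDC45, DBF4, ORC6 and POLE. For such pairs the peak cannot be assigned to 1 gene. The peaks were the same at the main TSS alone as at any TSS for 50 of the 52 genes, the exceptions being GINS1 and RPA3.

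E2F letters were counted around the summits in windows of 3 lengths, with no test. In 200 bp centred on the summit of abemaciclib replicate 1 they stood at 34.6% of the replication genes and 18.2% of 11532 other bound coding genes, and in 100 bp at 15.4% and 8.59%. In 400 bp the share was 78.8% against 36.2%. Among the 41 replication genes with a match in 400 bp, the match nearest the summit lay at a median of 115 bp in this library. That median was 92 bp over 39 genes in abemaciclib replicate 2. It was 81 and 79 bp over 23 and 28 genes in DMSO replicates 1 and 2. Only genes bound in a library entered, so the genes compared differ between treatments. Around summits of abemaciclib replicate 2 the 200-bp share was 44.2% against 18.3% of other bound coding genes. Around DMSO summits it was 53.6% against 29.1% in replicate 1 and 54.3% against 27.7% in replicate 2. The same letters reversed without complement keep base composition. Around summits of abemaciclib replicate 1 they stood at 23.1% against 13.9% in 200 bp and 32.7% against 27.6% in 400 bp. In 200 bp they stood at 13.5% against 13.7% in abemaciclib replicate 2. In DMSO replicates 1 and 2 it was 21.4% against 17.7% and 28.6% against 17.6%. The median G and C content of the 200-bp windows was 66.5% for the replication genes and 69.0% for the others.

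In 400 bp, E2F letters stood at 24 of the 27 genes bound throughout (88.9%), 7 of the 9 with 1 DMSO library (77.8%) and 10 of the 16 abemaciclib-only genes (62.5%), against 53.7%, 45.0% and 33.3% of other coding genes of the same patterns. At least 2 matches were held by 17 of the 52 genes, or 32.7% against 7.87%. The genes without them in that window were GINS1, RFC5, FEN1, MCM10, RECQL4, TICRR, ORC4, ORC5, ORC6, POLD2 and POLD4. For GINS1 and RPA3 the window lay at an alternative TSS, so its letters do not describe the promoter at their main TSS. The CCAAT box (letters CCAAT, the NF-Y element) stood at 61.5% of the replication genes against 34.9% in 400 bp, and 25 genes (48.1%) held both patterns, against 12.9%. Reversed CCAAT letters stood at 17.3% against 20.1%. The cell cycle homology region (CHR, letters TTTGAA), an element of genes of later cell cycle phases, stood at 11.5% against 7.62% in 400 bp, at 6 genes, and its reversed letters at 17.3% against 8.54%. In 200 bp the CHR letters stood at 3.85% against 3.64% around summits of abemaciclib replicate 1 and at 0 of 52 genes against 4.01% around those of replicate 2. In RefSeq promoters (GRCh38.p14, 300 bases around the start), which were matched for 44 of the 52 genes, E2F letters stood at 63.6% against 17.3% of 15271 other promoters, and CHR letters at 2.27% against 12.1%. A match of letters is not a measured binding site, and other E2F spellings were not searched.

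**Figure D5:**
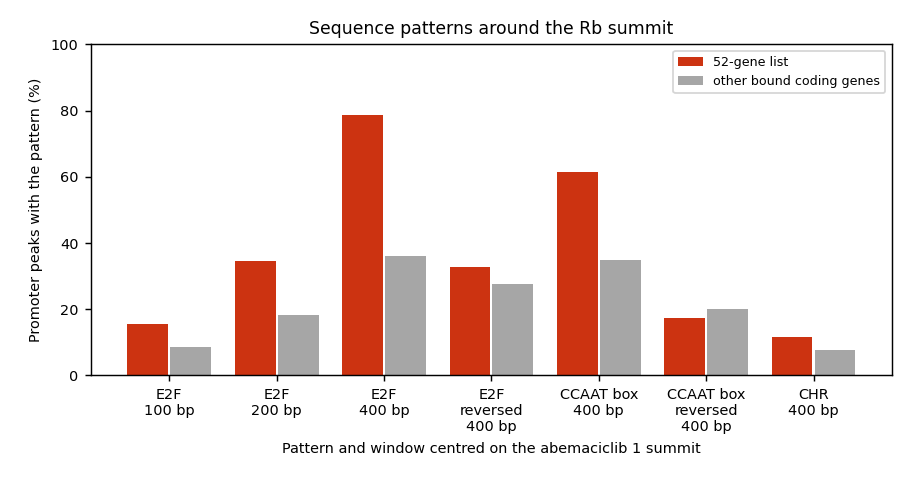
Share of promoter peaks (y axis, %) that hold each pattern on either strand in a window centred on the summit of abemaciclib replicate 1 (x axis), for the 52 replication genes and the 11532 other bound coding genes. E2F letters in 400 bp stood at 78.8% against 36.2%, the CCAAT box at 61.5% against 34.9%, and both patterns read backwards at 32.7% against 27.6% and 17.3% against 20.1%.

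Of a further list of 26 replication genes outside the 52, 25 were bound in both abemaciclib libraries (background 52.7%). Among these, 8 were bound in all 4 Rb libraries, namely ATAD5, CLSPN, DONSON, PRIMPOL, RIF1, RNASEH2C, SUPT16H and TIMELESS (background 6.41%), 14 were abemaciclib-only (background 38.9%) and 3 had a peak in 1 DMSO library. CLSPN, the checkpoint adaptor claspin, was the strongest at heights of 366 and 385 under abemaciclib against 36.7 and 43.99 in DMSO. The remaining gene, DBF4B, was bound in abemaciclib replicate 1 alone, so none of the 26 lacked a peak in all 4 libraries (background 40.7%).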

How the data were processed

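Rb and IgG2a CUT&RUN libraries of ZR-75-1 cells were grouped by the treatment and antibody in their labels. Per the methods and labels, the authors trimmed reads with BBDuk, aligned them to hg38 with Bowtie2 2.3.4.1, kept duplicates, removed mitochondrial and blacklisted reads, and ran MACS2 2.2.7.1 on every library on its own, at a q-value of 0.05 and with an IgG control for Rb. The deposited lists hold for each peak a fold ratio, (pileup + 1)/(local background + 1), −log10 values of the Poisson p-value and the q-value, the peak caller's integer score and the summit offset.

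From these, the whole-number summit pileup and local background that satisfy both fold and p-value were solved for at least 99.96% of peaks per library; the procedure was tested on simulated data. Fragment totals were implied from the lowest recurrent background, an assumed genome of 2.7 Gb and the least peak width and rest on these assumptions. Promoter windows and gene parts came from GENCODE release 44 on hg38, with an overlap of at least 1 bp. Genes were described in full when they had the best or worst mean abemaciclib rank of their role, the best ranks of their pattern, or a peak in 3 libraries. The 52 genes, their roles and the further list were chosen with earlier results of these data known. Counts and medians of the list are given beside those of other coding genes with no test of the list, and the library means were compared by an exact permutation test (SciPy 1.17.1). The peak lists hold no counts over common regions, so the count model the study ran on reads was not run. Depth limits each call to summits of at least 5 or 6 fragments at background. Alternatives covered q-values, window, TSS choice, list size, IgG2a peaks, motif window, scaling and leaving out each replicate.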

Additional observations from a re-analysis of the deposited data

How the results depend on the processing

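The counts of replication genes by pattern kept within 1.5 times of their values at q-values of at most 0.01 and 1e-05. The same held with promoter windows of 500 or 1000 bp on either side and with the summit required in the window. It also held without Rb peaks that overlap IgG2a peaks, where little could change since no replication gene had an IgG2a peak in its promoter window. With equal list sizes, 1 gene was abemaciclib-only instead of 16 (1.12% of all coding genes), 17 were bound in no library instead of 0 (87.4% of all coding genes), and the mean difference between treatments was 0 instead of 20.5 genes. By construction, this setting removes the weaker peaks of the longer lists. With the main TSS only, 1 gene (RPA3) was bound in no library, against 44.2% of all coding genes. Leaving out 1 library at a time gave 27 to 35 genes bound in all remaining libraries, against 6.41% to 12.4% of all coding genes. Abemaciclib-only genes then numbered 16 to 24, against 40.1% to 44.8%. The 24 arose without DMSO replicate 2, where the share of all coding genes was 44.8%. No replication gene was unbound, against 40.7% to 46.0% of all coding genes, and the mean difference was 17 to 24 genes. The median rank percentile was 11.8 and 12.9 in abemaciclib replicates 1 and 2 at a q-value of at most 1e-05, instead of 9.44 and 10.6. The share of replication genes with E2F letters was 78.8% in 400 bp, 15.4% in 100 bp and 63.6% in RefSeq promoters, instead of 34.6% in 200 bp, since each window holds a different length or position. Divided by the median pileup of shared promoters, 3 instead of 27 genes were higher in both abemaciclib libraries. Summit pileups divided by the genome-wide mean coverage, and the reversed E2F letters, were added after seeing the data. With the replicate number as a block, also added after seeing the data, the paired differences were 24 and 17 genes with a mean of 20.5 and an exact two-sided sign-flip permutation p = 0.5, the smallest that 2 pairs allow; the labels do not say that a number marks a shared batch or day. With 2 libraries per treatment the permutation test cannot reach 0.05, and a promoter just under the calling limit counts as unbound. DMSO summits of at most 8 fragments were close to that limit at the genome-wide background. They were held by 4 of the 27 genes bound in all 4 libraries (CDC45, POLE3, RFC1 and RFC3). They were also held by 5 of the 9 with 1 DMSO library (ORC3, ORC6, POLA2, POLE4 and RPA1). These counts leave out local background, which raises the limit. The DMSO replicate 1 peak of POLD1, with 10 fragments over a local background of 1.89, ranked 1362 of 1438. At a q-value of at most 1e-05, 19 instead of 27 genes were bound in all 4, against 3.19% of all coding genes. Abemaciclib-only genes then numbered 24 instead of 16, against 39.6% of all coding genes. The mean difference between treatments was then 28.5 instead of 20.5 genes.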
